A study of Homo sapiens with 12 samples.

Results

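Transcripts of 8 genes that make polyamines or set the activity of the enzymes making them were followed in Ewing sarcoma cells after transcription was stopped. The genes were chosen by symbol from a table of raw read counts, and all 8 (ODC1, OAZ1, OAZ2, AZIN1, AMD1, SAT1, SRM and SMS) were found among its 26334 gene symbols and reached the mean of 10 counts per library required for testing, as did 12032 genes in all. The cells, labelled shA673-1c, are a derivative of A673, an established Ewing sarcoma line, and were grown in high-glucose DMEM with 10% FBS, blasticidin and zeocin. They received 5 µM actinomycin D (ActD), an intercalator that blocks transcription, and were collected at 0, 1, 2 and 4 h with 3 replicates per time point, giving 12 poly(A)-selected libraries. All libraries came from the same line in the same selection, and every title carries the tag CTL, which the titles do not explain. No library was labelled as receiving vehicle over the same hours, so time in culture and time in ActD cannot be told apart.

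Polyamines (putrescine, spermidine and spermine) are small cations that bind RNA and are needed for growth. ODC1 (ornithine decarboxylase) makes putrescine, AMD1 (adenosylmethionine decarboxylase) makes the aminopropyl donor, and SRM and SMS (spermidine and spermine synthase) use that donor to lengthen the chain. SAT1 acetylates spermidine and spermine for breakdown or export. The antizymes OAZ1 and OAZ2 bind ODC1 and send it to the proteasome, and AZIN1, an enzymatically inactive relative of ODC1, binds the antizymes in its place. ODC1 and AMD1 proteins are both known to turn over quickly, and antizyme protein is made only when ribosomes change reading frame, which high polyamine levels favour.

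That change of frame can be seen in the annotation of both antizyme transcripts, and the sites are shown because they set OAZ1 and OAZ2 apart from the other members. In GENCODE version 44 on GRCh38 the annotated coding sequence of each antizyme omits a single base, and only 5 of 10827 coding canonical transcripts of tested genes (OAZ1, OAZ2, FOXO6, SLC37A4 and ZNF598) have such a gap. In the windows of 30 bases below, the capitals mark the last codon of the first frame followed by the in-frame stop TGA, whose T is the base omitted.
OAZ1, chr19:2271428-2271457, plus strand: cctcggtggtgcTCCTGAtgcccctcaccc
OAZ2, chr15:64691501-64691530, minus strand: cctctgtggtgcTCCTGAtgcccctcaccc
The omitted base lies at position 2271443 in OAZ1, after 68 codons, and at position 64691515 in OAZ2, after 32 codons. The windows were identical at 29 of 30 bases and differed by G5T, counted from 1 at the 5′ end, with the OAZ1 base first. Both sites lie in coding sequence.

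Library totals ranged from 9147018 to 11194705 counts. Values are counts per 1000000 (CPM) after TMM scaling, which sets the trimmed mean change of all genes between libraries to 0, so a transcript that was lost more slowly than most appears to rise. Immediate early genes known for unstable mRNA checked part of the time labels. JUN, IER2 and EGR1 had slopes of −0.89, −0.84 and −0.56 log2 per hour. For each of these genes, the libraries at 0, 1 and 2 h did not overlap, whereas those at 2 and 4 h did. Their means at 2 and 4 h were 5.56 and 4.54 CPM for JUN, 8.42 and 8.12 CPM for IER2, and 2.84 and 3.19 CPM for EGR1. These genes therefore could not tell the 2 h labels from the 4 h labels. Of the Ewing sarcoma markers, PRKCB (98.0 to 185 CPM), STEAP1 (53.3 to 68.2 CPM), NR0B1 (7.72 to 43.5 CPM) and NKX2-2 (0.783 to 7.72 CPM) were detected, whereas CD99 was listed at 0 in all 12 libraries. So were all 15 protein-coding genes of the table between the start of the X chromosome and CD99, CD99 included, so this 0 says nothing about its expression. Markers of other cell types (PTPRC, EPCAM, PECAM1, DCN and DES) stayed at or below 3.08 CPM.

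The members differed widely in level before treatment. Per kilobase of canonical transcript, OAZ1 was the most abundant at 429 ± 18.4 CPM per kb (SD, n = 3), followed by ODC1 at 200.5 ± 9.27, SRM at 123 ± 5.59 and SMS at 86.0 ± 3.48 CPM per kb. AMD1 stood at 53.3 ± 0.501 CPM per kb, OAZ2 at 44.7 ± 2.51, AZIN1 at 28.0 ± 0.872 and SAT1 at 6.79 ± 1.51 CPM per kb. The ranges of neighbours in this order did not overlap among the 3 replicates at 0 h. The level of antizyme mRNA per length was thus carried mainly by OAZ1, and the transcript for the catabolic enzyme SAT1 was the least abundant of the 8.

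Over the time course the slope of log2 abundance was fitted for every gene with edgeR, and p-values were adjusted over the 12032 genes. Of the 8 members, 1 fell (AMD1), 4 rose relative to the TMM scaling (OAZ1, OAZ2, SRM and SMS) and 3 did not pass the threshold of 0.05 (ODC1, AZIN1 and SAT1). In the background, 32.1% of all tested genes fell and 30.7% rose. In a fit with the replicate block, 7 members rose and 1 fell, against 36.2% of all genes higher and 34.8% lower. On scaling to GAPDH plus ACTB 0 members rose and 3 fell, against 0.931% of all genes higher and 64.2% lower. The median slope was 0.092 log2 per hour over the members and 0.0093 over all tested genes. When time was fitted as 4 separate groups and 4 h was compared with 0 h, the same genes were called (1 fell and 4 rose), against 31.6% of all genes lower and 28.7% higher. In bulk RNA a fall in the RNA per cell and a loss of cells cannot be told apart, and no spike-in was available to give absolute levels.

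**Figure D1:**
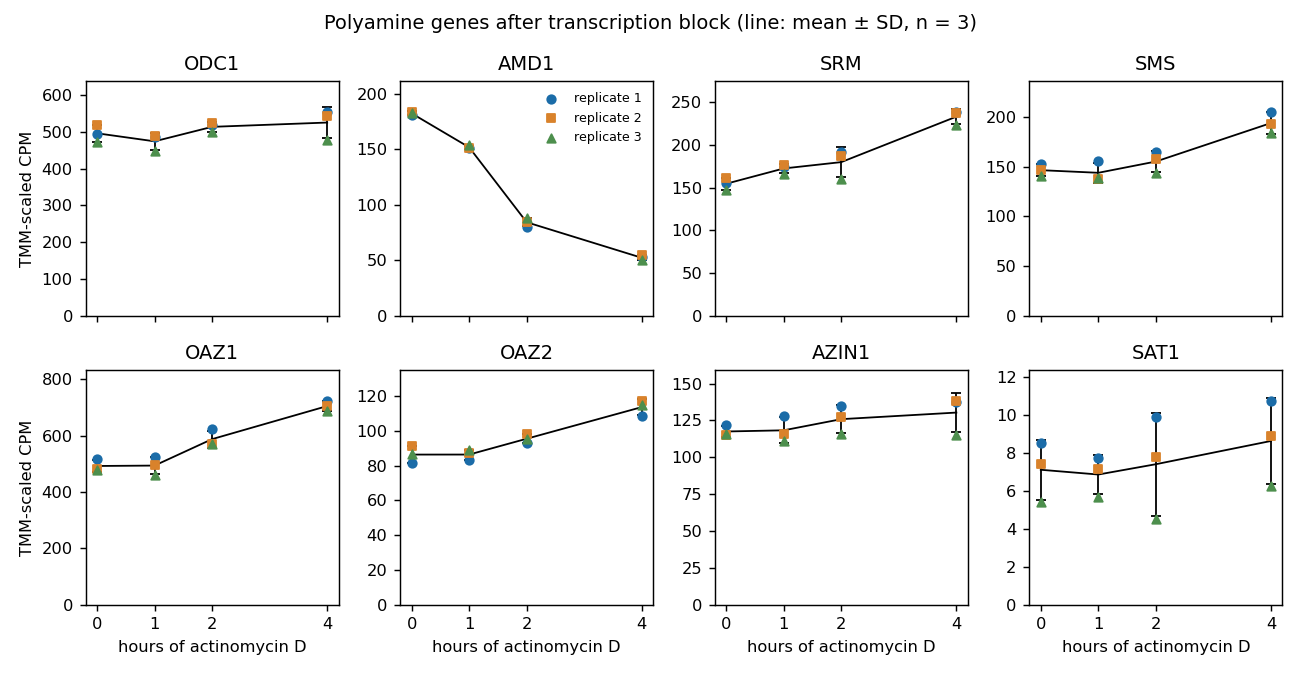
Abundance of the 8 transcripts (CPM after TMM scaling, each panel with its own axis) against hours in 5 µM ActD. Coloured points are single libraries, and the line joins the means with the SD of 3 replicates per time point. AMD1 drops from 183 to 52.3 CPM, OAZ1, OAZ2, SRM and SMS are higher at 4 h than at 0 h on this scale, and the 0 h and 4 h points of ODC1, AZIN1 and SAT1 overlap.

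AMD1, which supplies the aminopropyl groups for both spermidine and spermine, was the one member lost quickly. Its level was 180.7, 184.1 and 182.9 CPM in replicates 1 to 3 at 0 h and 151, 151 and 154 CPM at 1 h. It was then 80.5, 84.8 and 87.8 CPM at 2 h and 52.5, 54.3 and 49.9 CPM at 4 h. No library of one time point overlapped with any of another, and the spread between replicates was small beside the fall. Relative to 0 h, AMD1 was at 83.2% at 1 h, 46.2% at 2 h and 28.6% at 4 h. The slope was −0.48 log2 per hour (SE 0.028, edgeR adjusted p = 1.62e-09). On the TMM scale this corresponds to a half-life of 2.10 h, with 2.11, 2.16 and 2.03 h from replicates 1 to 3. Only 5.28% of tested genes had a lower slope. The change from 0 to 4 h was −1.80 on the log2 scale (SE 0.056, edgeR adjusted p = 5.49e-11). On the other scalings and subsets of times and replicates that were tried, the half-life lay between 1.63 and 2.11 h. All of these scalings are relative and each half-life comes from a straight line, so the range does not bound an absolute half-life.

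The loss of AMD1 was not even over the time course. From 0 to 1 h its log2 level changed at −0.27 ± 0.017 per hour (SD, n = 3), from 1 to 2 h at −0.85 ± 0.053 and from 2 to 4 h at −0.35 ± 0.054. In each replicate the second hour had the steepest loss and the first the least steep. A steepest second hour was not particular to AMD1. The means of JUN and IER2 also fell most steeply then, from 51.1 to 13.5% and from 49.6 to 12.9% of 0 h. The mean of EGR1 did not. Its log2 fall was steepest in the first hour, to 45.6% of 0 h, and it reached 21.6% at 2 h. A test of departure from a straight line passed for AMD1 (edgeR adjusted p = 0.00466) and for no other member, where the lowest adjusted p was 0.515, against 2.7% of all tested genes. With fewer libraries, the edgeR adjusted p for AMD1 was 0.214 without replicate 1, 0.241 without replicate 2 and 0.0244 without replicate 3. It was 0.0951 when counts were scaled to GAPDH plus ACTB. In a fit blocked on replicate number, OAZ1 (adjusted p = 0.00261) and SMS (adjusted p = 0.00697) also departed from a line. The share of all tested genes that departed in that blocked fit was not computed, so these calls stand without a background. Outside the members, JUN (edgeR adjusted p = 0.0320), IER2 (adjusted p = 3.68e-04) and EGR1 (adjusted p = 0.00320) departed from a line without the block.

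At 1 h, AMD1 was again the only member called. It was lower than at 0 h by −0.27 on the log2 scale (SE 0.052, edgeR adjusted p = 0.0135) in all 3 replicates, against 2.24% of all tested genes lower and 0.349% higher. With any single replicate left out the adjusted p lay between 0.0705 and 0.288, at a difference between −0.27 and −0.26. SRM, the spermidine synthase, was 0.16 higher on the log2 scale at 1 h (adjusted p = 0.315), a difference that passed with the replicate block (0.16, adjusted p = 0.00534). For the blocked change at 1 h, too, no share of all tested genes was computed.

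AMD1 lies on chromosome 6 (110874770 to 110898879, plus strand, GRCh38), and its canonical transcript of 3423 nt has a 3′ UTR of 2097 nt. The AU-rich pentamer ATTTA, the core letter group of elements known to bind decay factors, was searched on the sense strand with overlapping matches allowed. It occurred 6 times, and in 3 of these a further T adjoined the pentamer. How often a T adjoins the pentamer in other 3′ UTRs was not counted. The 3 sites with this T are shown with the pentamer in capitals, because AMD1 is the member that fell. The pentamers begin 626, 986 and 1555 nt after the stop codon, all in the last of 9 exons.
AMD1 site 1, chr6:110894230-110894258: attggaccctgcATTTAtagtcctttgat
AMD1 site 3, chr6:110894590-110894618: aaaatcatttttATTTAgttaattaccag
AMD1 site 5, chr6:110895159-110895187: tgttccttccgtATTTAtaaatgaaacac
As many as 6 pentamers were common at this length, since 39.5% of 1695 canonical 3′ UTRs of 0.8 to 1.25 times the length of that of AMD1 held 6 or more.

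The other members differed in the same feature, and whether it goes with the slopes was not tested. AZIN1 held 11 pentamers in a 3′ UTR of 2259 nt, a number reached by 9.18% of 1700 3′ UTRs of like length. Per kb of 3′ UTR, SAT1 held 5.65 pentamers, AZIN1 4.87, SRM 3.62 and AMD1 2.86. The density was 2.62 per kb in OAZ1, 2.06 in SMS, 1.77 in OAZ2 and 0 in ODC1. OAZ2 (1131 nt) and SAT1 (354 nt) held 2 each, OAZ1 (382 nt), SRM (276 nt) and SMS (486 nt) held 1 each, and ODC1 (756 nt) held 0. Over 10819 canonical transcripts of tested genes, 75.1% held at least 1 pentamer and the median was 2. The longer motif TTATTTATT, which contains the pentamer, was absent from the 3′ UTRs of all 8 members and present in 10.1% of those of tested genes. The GC content of the AMD1 transcript was 37.9%, and the median over the tested genes was 47.9%. A match of letters is no evidence that a factor bound there.

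ODC1, the first enzyme of the pathway, held its level on the TMM scale. It was at 496, 520 and 474 CPM in replicates 1 to 3 at 0 h, 487, 488 and 448 CPM at 1 h, 520, 523 and 499 CPM at 2 h, and 555, 544 and 477 CPM at 4 h. The 0 h and 4 h libraries overlapped, with replicate 3 the lowest at every time point. The slope was 0.028 log2 per hour (SE 0.016, edgeR adjusted p = 0.134). Blocked on replicate number, the slope was the same and passed (0.028, adjusted p = 0.0261), as did the change from 0 to 4 h (0.083 without the block, adjusted p = 0.287, and 0.081 with it, adjusted p = 0.0237). The direction turned with the scaling: the slope was −0.011 on library totals (adjusted p = 0.476) and −0.11 on GAPDH plus ACTB (adjusted p = 1.09e-05).

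OAZ1, the most abundant antizyme transcript, measured 517, 482 and 479 CPM in replicates 1 to 3 at 0 h, 525, 496.5 and 462 CPM at 1 h, 624, 572 and 569 CPM at 2 h, and 725, 706 and 686 CPM at 4 h. The 0 h and 1 h libraries overlapped, and all 3 libraries at 4 h were above every earlier library. The level at 4 h was 143% of that at 0 h. The slope was 0.14 log2 per hour (SE 0.016, edgeR adjusted p = 1.20e-06) and the change from 0 to 4 h was 0.52 (SE 0.060, adjusted p = 4.62e-06). OAZ1 gained little in the first hour (0.0032 ± 0.051 log2 per hour, SD, n = 3), and more between 1 and 2 h (0.25 ± 0.049) and between 2 and 4 h (0.13 ± 0.022).

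OAZ2, a less abundant antizyme, measured 81.4, 91.1 and 86.6 CPM in replicates 1 to 3 at 0 h, 83.2, 87.2 and 88.8 CPM at 1 h, 92.9, 98.2 and 95.4 CPM at 2 h, and 109, 117 and 115 CPM at 4 h. The 4 h libraries lay above all others, at 132% of the 0 h level. The slope was 0.11 log2 per hour (SE 0.015, edgeR adjusted p = 1.51e-05). Its rise was not past the threshold over 0, 1 and 2 h alone (0.083, adjusted p = 0.0629).

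AZIN1, the antizyme inhibitor, measured 122, 115 and 115.5 CPM in replicates 1 to 3 at 0 h, 128, 116 and 111 CPM at 1 h, 135, 127 and 116 CPM at 2 h, and 138, 138 and 115 CPM at 4 h. Replicates 1 and 2 were higher at 4 h than at 0 h, and replicate 3 was not. The slope was 0.041 log2 per hour (SE 0.019, edgeR adjusted p = 0.0696). It passed with the replicate block (0.040, adjusted p = 0.00784) and without replicate 3 (0.052, adjusted p = 0.0193). The change from 0 to 4 h likewise passed with the block (0.15, adjusted p = 0.129 without it and 0.00556 with it) and without replicate 3 (0.20, adjusted p = 0.0354).

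Of the synthases, SRM measured 156, 161 and 147 CPM in replicates 1 to 3 at 0 h, 174, 177 and 167 CPM at 1 h, 192, 188 and 160 CPM at 2 h, and 239, 238 and 223 CPM at 4 h. All 3 libraries were higher at 1 h than every library at 0 h, and the level at 4 h was 151% of that at 0 h. The slope was 0.15 log2 per hour (SE 0.017, edgeR adjusted p = 1.16e-06), the highest of the 8 members. SMS measured 152, 147 and 141 CPM at 0 h, 155, 138 and 138 CPM at 1 h, 165, 158 and 143 CPM at 2 h, and 205, 193 and 183 CPM at 4 h. The first 3 time points of SMS overlapped and the 4 h libraries stood above them, at 132% of the 0 h level. The slope of SMS was 0.11 log2 per hour (SE 0.019, adjusted p = 8.12e-05), and over 0, 1 and 2 h alone it was 0.052 (adjusted p = 0.300).

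SAT1 was the scarcest member, with 47 to 100 counts per library. It measured 8.55, 7.42 and 5.41 CPM in replicates 1 to 3 at 0 h, 7.75, 7.16 and 5.71 CPM at 1 h, 9.92, 7.79 and 4.54 CPM at 2 h, and 10.8, 8.89 and 6.27 CPM at 4 h. Replicate 1 was the highest and replicate 3 the lowest at every time point, a spread larger than the change of the mean over time. The slope was 0.078 log2 per hour (SE 0.060, edgeR adjusted p = 0.271), and 0.075 with the replicate block (adjusted p = 0.0472).

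**Figure D2:**
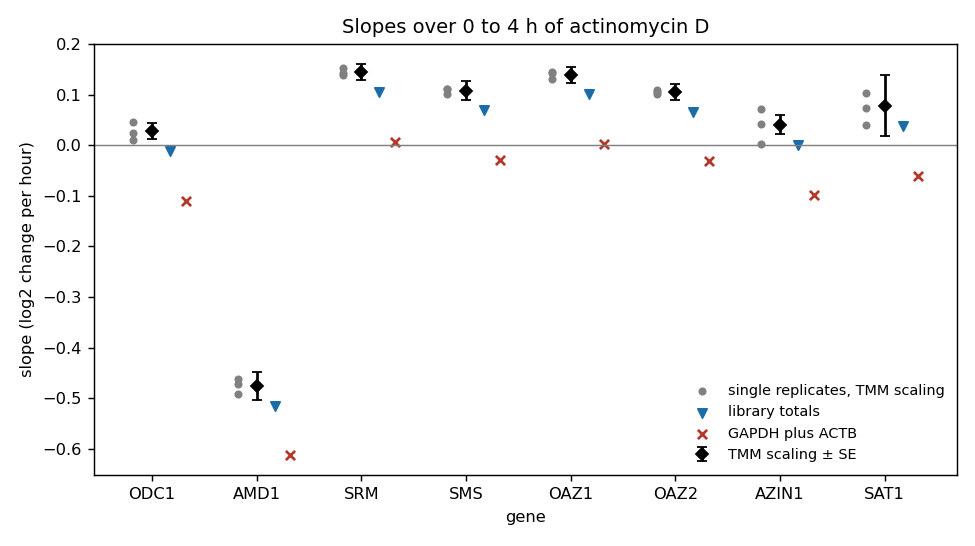
Slope of each member (log2 change per hour) from edgeR fits of 12 libraries. Diamonds with SE bars show TMM scaling, grey points its single replicates, triangles library totals and crosses scaling to GAPDH plus ACTB. AMD1 is below 0 on each scale (−0.61 to −0.48), whereas OAZ1, OAZ2, SRM and SMS are above 0 on TMM scaling and library totals and between −0.032 and 0.0072 on GAPDH plus ACTB.

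How far a rise or fall could be read depended on what the counts were scaled to. GAPDH and ACTB, commonly used reference transcripts, themselves rose by 0.15 and 0.12 log2 per hour on the TMM scale, to 150.5% and 142% of the 0 h level. Scaling to their summed counts shifted the median slope of all tested genes by −0.14, to −0.13 log2 per hour. On that scale AMD1 (−0.61, edgeR adjusted p = 2.99e-11), ODC1 and AZIN1 (−0.098, adjusted p = 8.34e-05) fell and no member rose. OAZ1 (0.0021, adjusted p = 0.921), SRM (0.0072, adjusted p = 0.734), OAZ2 (−0.032, adjusted p = 0.254) and SMS (−0.030, adjusted p = 0.134) did not pass. A change of scaling shifts all slopes almost equally, so distances from the median of all genes are nearly fixed. On the TMM scale AMD1 was at −0.48, OAZ1 at 0.13, SRM at 0.14 and ODC1 at 0.019 relative to that median.

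Ratios of 2 members within a library do not depend on the scaling and were tested by exact two-sided permutation of the times over the 12 libraries, with p-values adjusted over the 7 ratios computed. The ratio of OAZ1 to ODC1 counts was 0.994 ± 0.060 (SD, n = 3) at 0 h, 1.04 ± 0.031 at 1 h, 1.14 ± 0.054 at 2 h and 1.35 ± 0.080 at 4 h. No 4 h library overlapped with an earlier one, and the ratio rose in each replicate. Its log2 slope was 0.11 per hour (SD 0.025 over the 3 replicates, exact permutation p = 1.35e-05, adjusted p = 4.73e-05). OAZ1 mRNA thus became more abundant relative to the mRNA of its target enzyme, whichever scaling is used.

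The ratio of AZIN1 to OAZ1 moved the other way, from 0.238 ± 0.0029 at 0 h and 0.239 ± 0.0052 at 1 h to 0.214 ± 0.0097 at 2 h and 0.184 ± 0.015 at 4 h (SD, n = 3). Its slope was −0.10 log2 per hour (exact permutation p = 3.25e-05, adjusted p = 7.58e-05), and it was negative in all 3 replicates. AZIN1 and its relative ODC1 kept a ratio of 0.237 ± 0.013 at 0 h and 0.248 ± 0.0064 at 4 h, and the slope of 0.012 was −0.0029, 0.046 and −0.0080 in replicates 1 to 3 (exact permutation p = 0.399, adjusted p = 0.465). The antizymes themselves had a ratio of OAZ2 to OAZ1 of 0.176 ± 0.016 at 0 h and 0.161 ± 0.0097 at 4 h. Its slope of −0.034 log2 per hour was negative in all 3 replicates and did not pass (exact permutation p = 0.148, adjusted p = 0.208). With times permuted within replicate numbers, as a replicate block, it did (exact permutation p = 0.0117, adjusted p = 0.0205), as it did without replicate 1 (−0.041, exact permutation, adjusted p = 0.0389).

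Between the decarboxylases, the ratio of AMD1 to ODC1 fell from 0.368 ± 0.016 at 0 h through 0.321 ± 0.019 at 1 h and 0.164 ± 0.011 at 2 h to 0.0997 ± 0.0050 at 4 h (SD, n = 3). The slope was −0.50 log2 per hour (SD 0.015 over replicates), with an exact permutation p = 2.71e-06, the smallest these arrangements can give, and an adjusted p = 1.89e-05. The ratio of SMS to SRM was 0.948 ± 0.034 at 0 h and between 0.832 and 0.864 on average at later times. Its slope of −0.037 was negative in all 3 replicates and did not pass after adjustment (exact permutation p = 0.0478, adjusted p = 0.0836). SAT1 to ODC1 changed by 0.045 log2 per hour (exact permutation p = 0.486).

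**Figure D3:**
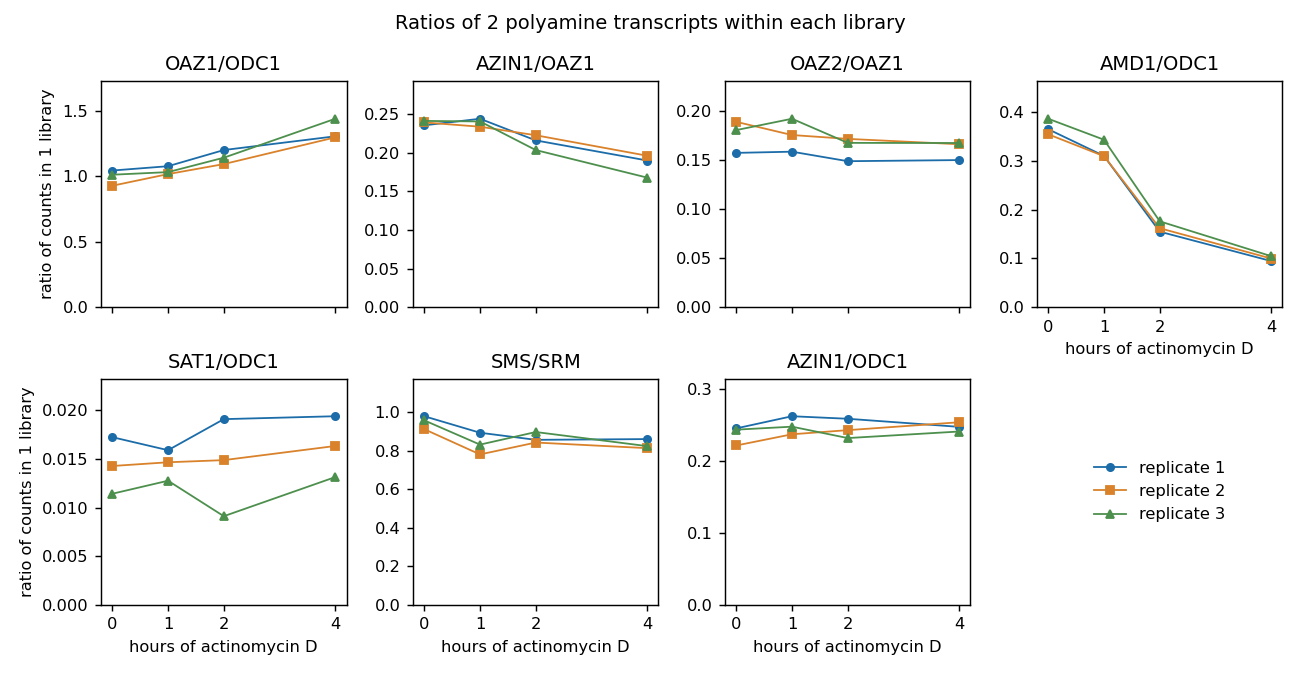
Within-library count ratios (no unit) of the 7 pairs of members, each panel with its own axis, against hours in ActD. Each line joins the libraries of 1 replicate number. On average OAZ1/ODC1 climbs from 0.994 to 1.35, AZIN1/OAZ1 declines from 0.238 to 0.184 and AMD1/ODC1 declines from 0.368 to 0.0997.

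Of 29 other genes of polyamine metabolism, which covered the supply of ornithine and of S-adenosylmethionine, methionine salvage, acetylation and oxidation, hypusination and transport, 21 could be tested. On the TMM scale 1 fell (MAT2A), 9 rose and 11 did not pass, with a median slope of 0.055 log2 per hour, against the backgrounds of 32.1% lower and 30.7% higher given above. On GAPDH plus ACTB, 13 of the 21 fell and 0 rose, where 64.2% of all tested genes fell. With the replicate block 2 fell (MAT2A and SLC3A2) and 10 rose, where 34.8% of all tested genes fell and 36.2% rose. The 8 genes too low to test were ARG1, AGMAT, MAT1A, SATL1, PAOX, ATP13A4 and the paralogs OAZ3, with 1 to 7 counts per library, and AZIN2, with 2 to 11.

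The gene that fell, MAT2A, makes the S-adenosylmethionine that AMD1 decarboxylates. It went from 285 ± 29.9 to 154 ± 43.8 CPM (SD, n = 3) between 0 and 4 h, with a slope of −0.22 log2 per hour (SE 0.048, edgeR adjusted p = 6.70e-04). The half-life was 4.47 h on the TMM scale, and it was 3.71, 3.71 and 6.53 h in replicates 1 to 3. On library totals it was 3.83 h and on GAPDH plus ACTB 2.78 h. MAT2A and AMD1 are consecutive steps on the branch that feeds aminopropyl groups. On the TMM scale they were the called falls among the 29 genes of the combined lists that could be tested. This was a smaller share than the 32.1% of all tested genes that fell. SLC3A2 also fell with the replicate block, and MAT2B, MTAP, SLC3A2 and SMOX also fell on library totals. MAT2B, the regulatory partner of MAT2A, had a slope of −0.030 (adjusted p = 0.172).

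Among the genes that rose on the TMM scale, AHCY, which clears S-adenosylhomocysteine, had a slope of 0.15 (edgeR adjusted p = 1.25e-08). EIF5A, the translation factor that carries the spermidine-derived residue hypusine, had 0.14 (adjusted p = 2.39e-07), and DHPS, which starts that modification, had 0.16 (adjusted p = 7.82e-05). EIF5A has a near-identical copy, EIF5AL1, and how reads shared by such genes were assigned is not known. In methionine salvage ADI1 (0.11), MRI1 (0.098) and APIP (0.072) rose, in ornithine supply ALDH18A1 (0.086) and OAT (0.063), and in transport the lysosomal polyamine exporter ATP13A2 (0.11). The calls of APIP and OAT were lost on library totals (0.033, adjusted p = 0.274, and 0.024, adjusted p = 0.181). That of APIP was also lost without replicate 1 (adjusted p = 0.125) or replicate 2 (adjusted p = 0.0734), and that of OAT without replicate 3 (adjusted p = 0.0521). On GAPDH plus ACTB, OAT (−0.074, adjusted p = 0.00220) and ALDH18A1 (−0.053, adjusted p = 0.0145) fell, and none of the other genes that rose passed the test. SLC3A2, a subunit of amino acid transporters, had a slope of −0.075 (adjusted p = 0.0978), and −0.078 with the replicate block (adjusted p = 1.77e-06).

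**Figure D4:**
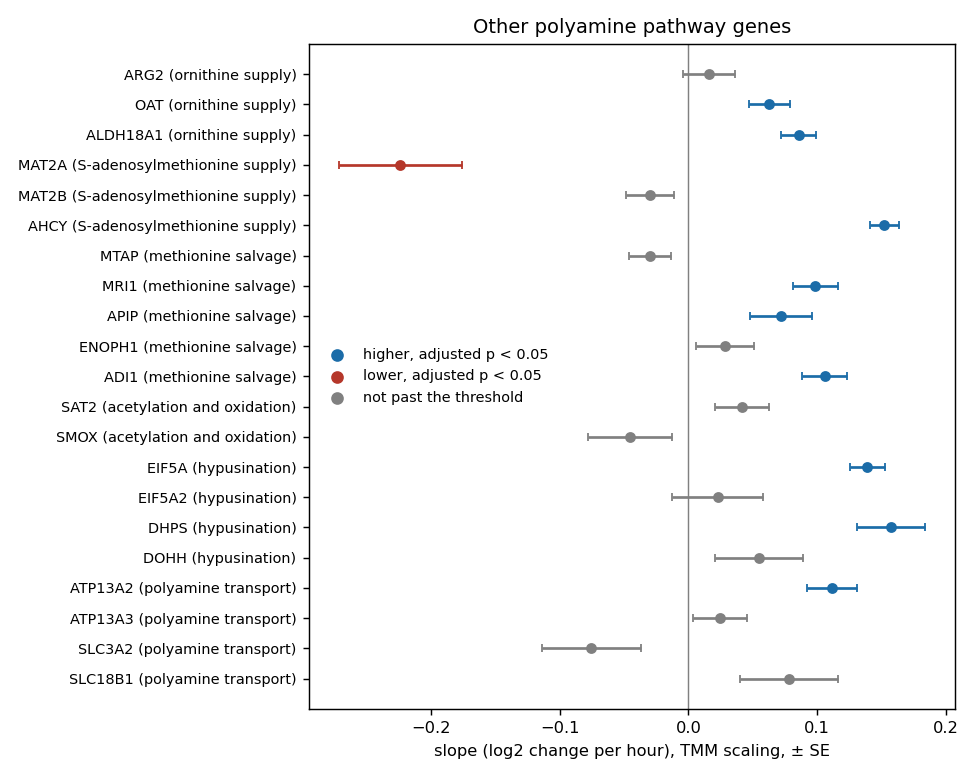
Slopes (log2 change per hour, TMM scaling) with their SE for the 21 tested genes of the wider polyamine pathway, from edgeR fits of 12 libraries. Red and blue mark genes lower or higher past an adjusted p of 0.05. MAT2A stands alone at −0.22, the 9 genes in blue lie between 0.063 and 0.16 on this scale, and 0 are higher on GAPDH plus ACTB.

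For each member, the genes with the most similar course were found by the root-mean-square difference in log2 CPM relative to 0 h over the 12 libraries, among 8855 genes averaging 100 counts or more (8856 for SAT1). AMD1 was nearest to ZNF772 (0.0899), SOX11 (0.0918) and ELF2 (0.102), where the median over all genes was 1.11. The slopes of these genes were −0.50, −0.48 and −0.47 log2 per hour. OAZ1 was nearest to ITGB1 (0.0336), MYL6 and PXDN, OAZ2 to SKP1 (0.0272), BIRC5 and RPL27A, and ODC1 to EIF4A3 (0.0343), AHSA1 and PFDN1. AZIN1 was nearest to SPAG9 (0.0453), DIAPH1 and TRIM44, SRM to EHD2 (0.0516), ARHGEF1 and IPO4, and SMS to ELOVL2 (0.0539), MAP1LC3B and ADAM9. SAT1 had no gene nearer than TMEM45A (0.111), followed by CALD1 and TPM1. No member was among the 3 nearest genes of another. Only 3 of 8855 or 8856 genes were taken each time, so this says little about whether members shared a course.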

How the data were processed

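RNA was measured by poly(A)-selected, stranded RNA-Seq in 12 libraries. The table the authors deposited holds raw read counts, 1 row per gene symbol. The labels' processing notes name FastQC, STAR and hg19; the counting tool, the annotation and the strand setting are not given in the sources used here, and the methods of the paper describe this kit's reads without naming these libraries. Reads shared with overlapping genes, paralogs or pseudogenes are therefore uncertain. Each column was matched to its sample by title, with 0 left unmatched.

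Models were fitted in R 4.3.3 using edgeR 4.0.16. Genes averaging at least 10 counts were kept (12032 of 26334, of which 7397 had no count), and TMM factors were used with glmQLFit and glmQLFTest with hours as a number or as 4 groups, with Benjamini-Hochberg adjustment over all tested genes, with a threshold of 0.05. The common biological coefficient of variation was 0.0905. SEs were derived from the F statistic, and half-lives are −1/slope. The edgeR slope fit was also run on simulated counts in which few genes changed and libraries were independent. That run cannot speak to the scaling or to the shared replicate deviations of these data. Ratios used log2 counts with 0.5 added and all 369600 arrangements of times (13824 within replicate numbers). DESeq2 1.42.0, other scalings, filters, subsets of times and left-out replicates were alternatives.

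The labels call the samples biological replicates and do not say what a shared replicate number means. Samples of the same number deviated together (18 pairs, mean r = 0.431, lowest 0.300), so blocked values are given where they change a call. Over 36 pairs of different number the mean r was −0.212. Deviations were taken from the mean of each time point, so this second mean largely follows from the first and is no separate comparison. Libraries of 1 time point differed beyond sampling noise (chi-square per degree of freedom 3.20 to 8.66).

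Transcript features are those of GENCODE version 44 canonical transcripts on GRCh38, another build than the one named for the reads; no coordinate was converted. The text names all 8 members, the pathway genes past the threshold, the 3 genes most like each member, and JUN, IER2, EGR1, GAPDH and ACTB; MAT2B, SLC3A2 and the untested pathway genes were added after their values were seen. The members and lists were chosen with earlier results of these data known.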

Additional observations from a re-analysis of the deposited data

How the results depend on the processing

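Of 469 alternative values, 396 were the same, 28 turned direction and 22 counts moved by over 1.5 times or to or from 0. For slopes, changes and ratios, the same meant the same direction and side of the threshold. For departures from a line it meant the side alone, and for counts a move of at most 1.5 times. Counting those that also turned direction, 16 values gained a call and 16 lost one. For the 5 called members, 54 of 60 alternative slopes kept their call, and the exceptions were OAZ1, OAZ2, SRM and SMS on GAPDH plus ACTB and OAZ2 and SMS over 0, 1 and 2 h. The slope of AMD1 lay between −0.61 and −0.47. Without a spike-in all statements are about relative abundance, and SAT1 is limited by its low counts. The causes of the changes below were not tested.

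On library totals the slope of ODC1 was −0.011, its change from 0 to 4 h −0.064 and the change of OAZ2 at 1 h −0.0014. The last was −0.0018 with a mean of at least 30 counts. On GAPDH plus ACTB the slopes were −0.11 for ODC1, −0.032 for OAZ2, −0.098 for AZIN1, −0.061 for SAT1 and −0.030 for SMS. The changes from 0 to 4 h on that scale were −0.47 for ODC1, −0.030 for OAZ1, −0.15 for OAZ2, −0.40 for AZIN1, −0.27 for SAT1 and −0.14 for SMS, and at 1 h they were −0.11 for OAZ1, −0.11 for OAZ2 and −0.11 for AZIN1. With 1 replicate left out, the change at 1 h ranged from −0.015 to 0.039 for OAZ1, from −0.014 to 0.034 for OAZ2, from −0.024 to 0.050 for AZIN1, from −0.090 to 0.0061 for SAT1 and from −0.055 to 0.0032 for SMS.

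The number of members that fell was 3 on GAPDH plus ACTB, and 0 rose, both over the slope and from 0 to 4 h. With the replicate block 7 members rose over time and 1 at 1 h, 2 rose over 0, 1 and 2 h alone, and with 1 replicate left out 0 to 0 fell at 1 h. Of the pathway list, 5 genes fell on library totals (MAT2A, MAT2B, MTAP, SLC3A2 and SMOX), 13 on GAPDH plus ACTB, where 0 rose, 2 with the replicate block, 2 over 0, 1 and 2 h, where 5 rose, and 1 to 2 with 1 replicate left out. Of all tested genes, 7729 fell and 112 rose on GAPDH plus ACTB, 2244 rose on library totals, and 2215 fell and 1447 rose over 0, 1 and 2 h. The slope of OAZ2/OAZ1 was −0.034 with the replicate block, where it passed, and −0.041 to −0.030 with 1 replicate left out, passing without replicate 1 (adjusted p = 0.0389). SAT1/ODC1 was −0.019 over 0, 1 and 2 h, and AZIN1/ODC1 was −0.0011 over 1, 2 and 4 h and −0.0054 to 0.022 with 1 replicate left out. Calls that the replicate block changed stand beside the results, and it changed no other call of a member.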
